A study of Mus musculus with 2 samples.

Results

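Sites of N6-methyladenosine (m6A) enrichment that covered more than 1000 bases were examined in pancreatic islets of 2-week-old mice of the 129sv strain. They were taken from the authors' deposited list of enriched sites on messenger RNA as all entries longer than 1000 bases whose gene had fewer than 10 entries. This rule gave 891 of 8987 sites (9.91%), on 838 of 4959 genes (16.9%). The list came from 1 library of RNA pulled down with an anti-m6A antibody (the immunoprecipitate, IP) and 1 library of RNA that was not pulled down (Input), both from islets for which the labels name no treatment or genotype. The labels give no number of animals, sex or pooling. With 1 library per group there was no replicate, no error between samples and no test, and the read depth is unknown. Ratios of shares between groups of sites are therefore descriptions of 1 list. The intervals given for shares are exact Clopper-Pearson intervals at 95% and cover counting error only.

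m6A is the most abundant internal mark of messenger RNA. It is written in the nucleus by a methyltransferase complex around METTL3 and METTL14, mostly at an adenosine inside a short consensus whose core is GGAC, and it is read by YTH-domain and other RNA-binding proteins that affect splicing, translation and decay. In mammalian messenger RNA the mark is known to gather in long internal exons, near stop codons and in 3′ untranslated regions, while exon junction complexes keep it away from short internal exons. The antibody assay does not resolve single adenosines, so an enriched stretch can hold several marked adenosines.

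The sites were chosen by their measured length and by the number of entries per gene, so both are given only as a description. Lengths ran from 1002 to 8020 bases, with a median of 1548 and quartiles of 1227 and 2208.5. The sites just inside the limit lay on Snrnp35 (1002 bases, fold 8.30), Nim1 (1003 bases, fold 6.74) and Siah2 (1005 bases, fold 6.42). Just outside it lay those on Cul4b (1000 bases, fold 6.91), 1110004F10Rik (999 bases, fold 8.92) and 6330408A02Rik (999 bases, fold 10.93). The limit on entries per gene removed 5 longer sites, on Akap9, Tnrc18, Cep350 and Dst, and the members closest to it were on Eprs and Arid4a, with 9 sites each. The 891 sites held 43.8% of all bases in the list.

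Sequence was at hand where a RefSeq promoter window of GRCm38 (250 bases before to 50 bases after a gene start) fell on a site. The windows below lay wholly inside a long site and are shown because they give letters of the enriched interval itself, which can hold introns or bases before the gene start. They belong to Hnrnpm, a splicing regulator (chr17:33685409-33685708, minus strand), Tesk1, a protein kinase (chr4:43442027-43442326, plus strand), Rnf26, a ubiquitin ligase of the endoplasmic reticulum (chr9:44113002-44113301, minus strand), and Ank2, a membrane-skeleton adaptor (chr3:126943337-126943636, minus strand), whose window surrounds a start inside the gene. Capitals mark each GGAC on the strand of the gene. In Hnrnpm, Tesk1 and Rnf26 every marked GGAC lies before the annotated gene start.
Hnrnpm: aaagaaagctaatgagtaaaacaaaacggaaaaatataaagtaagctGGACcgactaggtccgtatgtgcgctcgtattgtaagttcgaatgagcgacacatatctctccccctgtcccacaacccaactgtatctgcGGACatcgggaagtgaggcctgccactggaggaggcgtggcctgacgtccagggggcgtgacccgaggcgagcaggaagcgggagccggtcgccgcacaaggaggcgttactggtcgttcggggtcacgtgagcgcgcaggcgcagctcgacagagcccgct
Tesk1: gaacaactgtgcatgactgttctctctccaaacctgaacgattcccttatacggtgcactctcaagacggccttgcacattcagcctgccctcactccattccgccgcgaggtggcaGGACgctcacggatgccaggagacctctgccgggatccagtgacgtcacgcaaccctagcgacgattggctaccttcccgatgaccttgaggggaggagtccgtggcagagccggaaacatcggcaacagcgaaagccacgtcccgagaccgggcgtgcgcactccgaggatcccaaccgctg
Rnf26: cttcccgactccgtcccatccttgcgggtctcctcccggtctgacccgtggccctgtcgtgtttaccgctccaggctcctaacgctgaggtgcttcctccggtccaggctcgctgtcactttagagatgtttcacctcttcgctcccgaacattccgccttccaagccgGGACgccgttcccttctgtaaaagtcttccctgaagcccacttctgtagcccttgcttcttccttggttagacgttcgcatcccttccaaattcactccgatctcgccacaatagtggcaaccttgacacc
Ank2: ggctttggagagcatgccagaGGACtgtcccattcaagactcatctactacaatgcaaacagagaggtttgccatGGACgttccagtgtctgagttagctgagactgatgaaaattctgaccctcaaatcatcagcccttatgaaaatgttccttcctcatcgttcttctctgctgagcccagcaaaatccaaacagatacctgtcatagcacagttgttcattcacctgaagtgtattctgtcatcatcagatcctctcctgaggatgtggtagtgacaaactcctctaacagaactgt

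Tesk1 and Rnf26 each had 1 GGAC in the 300 bases shown, and Hnrnpm and Ank2 had 2. Not every such window held the motif. Among windows inside long sites that are not shown, that of Yy1 had 1 GGAC. Those of Nav1, Pagr1a and Six4 had 0. The first of the 2 in Ank2 stands in GGACT, a form of the consensus that contains GGAC. Whole windows lay in 24 long sites, and with the sites that a window only touched, 16457 bases of 132 long sites could be read, with 85 GGAC or 5.16 per 1000 bases. In 130582 bases of 1564 other sites there were 4.83 per 1000. The density of GGACT was 1.58 per 1000 bases in long sites and 0.896 per 1000 in other sites, from 26 and 117 matches. The share of G and C was 65.0% and 69.2%. Over all promoter windows there were 3.82 GGAC and 1.03 GGACT per 1000 bases, with a G and C share of 53.8%. On the window's own strand 65.6% of all 32851 promoter windows held a GGAC and 26.1% a GGACT, and on either strand 87.7% and 45.5%. These bases lie around gene starts, whereas most long sites did not, and a match does not show a marked adenosine.

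The deposited fold, a linear ratio of IP over the background that the peak caller expects from the Input, was not used to choose the sites. It ran from 2.19 to 70.13 in the long sites, with a median of 6.27 and quartiles of 4.90 and 8.66. Other sites had a median of 7.24 and quartiles of 5.55 and 10.07. A fold of at least 10 was reached by 156 of 891 long sites (17.5%, interval 15.1% to 20.2%) and by 2052 of 8096 other sites (25.3%), against 24.6% of all sites. At a fold of at least 5 the shares were 73.2% of long and 83.8% of other sites, with 82.7% of all. Long sites thus had lower folds than the rest of the list, and the same held against the 387 sites on genes with 10 or more entries, of which 29.5% reached a fold of 10. The 959 sites of up to 100 bases were close to the long sites at a fold of 10, with 18.5%. They were higher at a fold of at least 5, with 79.9%, and in their median, 6.69.

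**Figure D1:**
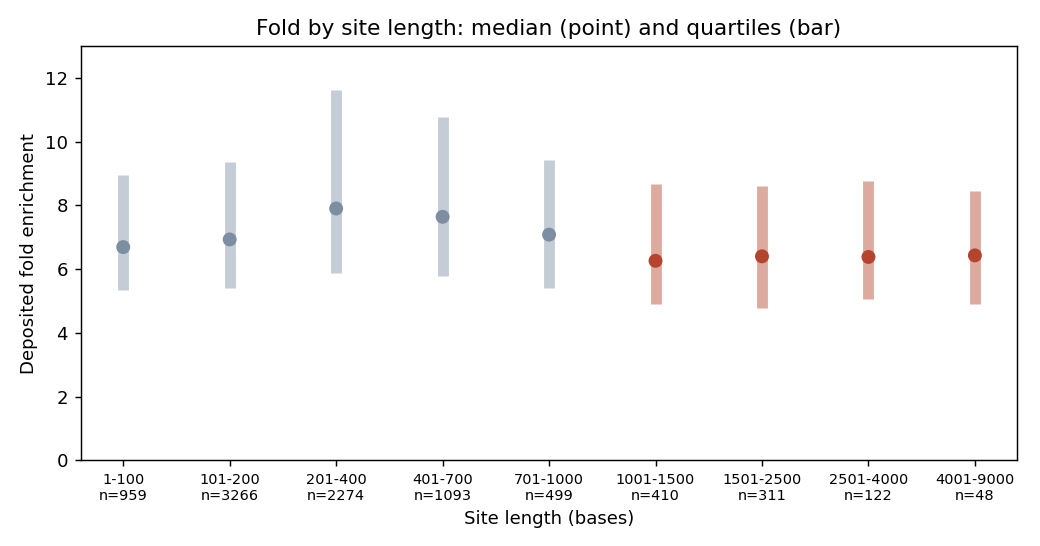
Deposited fold enrichment (linear axis) by site length in bases: points are medians, bars run from the lower to the upper quartile, and red marks the sites above 1000 bases. Medians were highest above 200 and up to 400 bases (7.90) and lay between 6.26 and 6.43 in the 4 classes above 1000 bases.

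Fold did not follow length among the long sites themselves. Spearman's rho between length and fold was -0.02 across the 891 sites, all from the same pair of libraries, and the median was 6.26 from 1000 up to 1500 bases and 6.43 above 4000 bases. The caller's score, 10 times the negative log10 of its p-value, moved differently. Its median was 153.03 in long sites and 130.535 in other sites, and 66.6% of long sites reached a score of 100, against 61.6% of other sites and 62.1% of all. Within the long sites the median score was 136.665 from 1000 up to 1500 bases and 358.1 above 4000 bases, and rho between length and score was 0.14. The deposited false discovery rate (FDR) was below 100% for 285 long sites (32.0%, interval 28.9% to 35.2%) and for 25% of other sites, against 25.7% of all. It was below 50% for 7.63% of long and 4.56% of other sites. Its lowest value was 27.16%, so no long site met a limit of 5% or 10%.

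**Figure D2:**
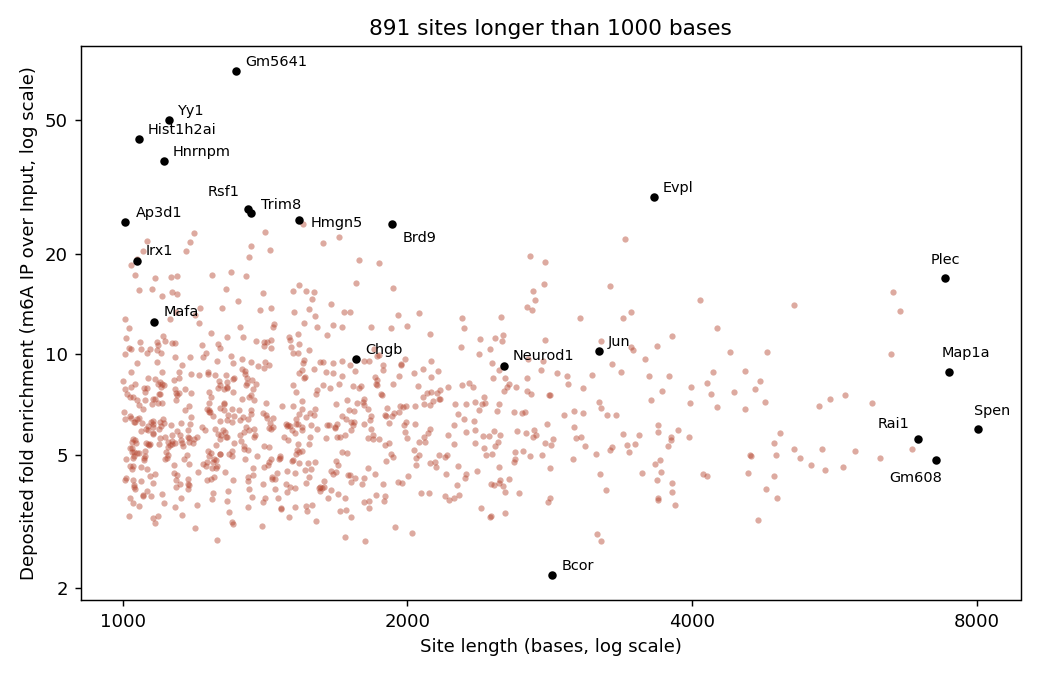
Each point is 1 of the 891 long sites, with its length in bases and its deposited fold, both on log axes. Black points carry the gene's name: the 10 largest folds, the 5 longest sites, the smallest fold (Bcor, 2.19) and Irx1, Mafa, Chgb, Neurod1 and Jun.

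The 10 largest folds lay between 24.43 and 70.13. Gm5641, annotated as a pseudogene of the splicing factor Hnrnpa3, came first with a fold of 70.13 over 1318 bases (chromosome 3, 54481429 to 54482746), and reads of a processed copy can be shared with its parent gene. Yy1 followed with 50.06 over 1119 bases at the start of its gene (chromosome 12, 108792973 to 108794091). Both had the score 3100. The long site of Hist1h2ai, a core histone H2A gene, had a fold of 43.93 and covered 1041 bases (chromosome 13, 21716412 to 21717452), although the gene spans only 448 bases, so that 593 bases of the site lay past its end. That of Hnrnpm had a fold of 37.73, and its midpoint lay before the annotated start of the gene.

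Evpl, an envelope protein of epithelia that links desmosomes to keratin, had a fold of 29.45 over 3643 bases (chromosome 11, 116220559 to 116224201). Rsf1, a chromatin remodelling subunit, had 27.21, the ubiquitin ligase Trim8 26.50, and the nucleosome-binding protein Hmgn5 25.17. Ap3d1, the delta subunit of the AP-3 adaptor that sorts vesicle cargo, had 24.76 over 1006 bases that ended 22 bases before the end of its gene. The acetyl-lysine reader Brd9 had 24.43. Of these 10 sites, 5 had the score 3100. In all, 28 long sites (3.14%) had a score of 3100 or more, against 1.17% of other sites and 1.37% of all.

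The 5 longest sites ran from 6930 to 8020 bases. Spen, a transcriptional repressor that acts with Xist RNA, had 8020 bases (chromosome 4, 141471370 to 141479389) with a fold of 5.98. The microtubule-associated protein Map1a had 7472 bases (chromosome 2, 121299901 to 121307372) with a fold of 8.88, which made up 35.2% of its gene span. Plec (plectin), a cytoskeletal linker, had 7412 bases with a fold of 16.87 and the score 3100. Gm608, named Usf3 in RefSeq, had 7250 bases with 4.83, and the chromatin-binding protein Rai1 6930 bases with 5.58. Next came the proliferation antigen Mki67 (6836 bases, fold 5.2), the presynaptic scaffold Bsn (6642 bases, 13.51), Ankrd11 (6518 bases, 15.38), Map1b (6490 bases, 10.05) and the kinase Mast4 (6326 bases, 4.90). The folds of these 10 sites lay between 4.83 and 16.87. The sites of Map1a and Map1b were the only sites of their genes in the list.

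The smallest folds of the long sites were close to the lower end of the whole list. Bcor, a corepressor of BCL6, had 2.19 over 2847 bases, the lowest fold of all 8987 sites. Zeb1, a zinc finger repressor, and Tet2, an oxidase of 5-methylcytosine, each had 2.77. A fold below 3 was found in 7 long sites (0.786%) and in 0.655% of other sites.

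Long sites lay mostly towards the 3′ ends of their genes. Position was read for sites whose gene matched a RefSeq gene of GRCm38 with a strand on record, which were 685 of the 891 long sites (76.9%) and 6512 other sites (80.4%). The midpoint fell in the last 10% of the gene span for 226 long sites (33.0%, interval 29.5% to 36.7%) and for 691 other sites (10.6%), against 12.7% of all sites. In the first 10% it was the reverse, with 69 long sites (10.1%) and 1760 other sites (27%), against 25.4% of all. The median midpoint stood at 78.5% of the span for long sites and at 46.0% for other sites. The share grew with length up to the limit and not beyond it: the last 10% held 6.02% of sites of up to 100 bases, 16.5% above 400 and up to 700 bases, 25.6% above 700 and up to 1000 bases, and between 30.6% and 34.6% in the 4 classes above 1000 bases.

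**Figure D3:**
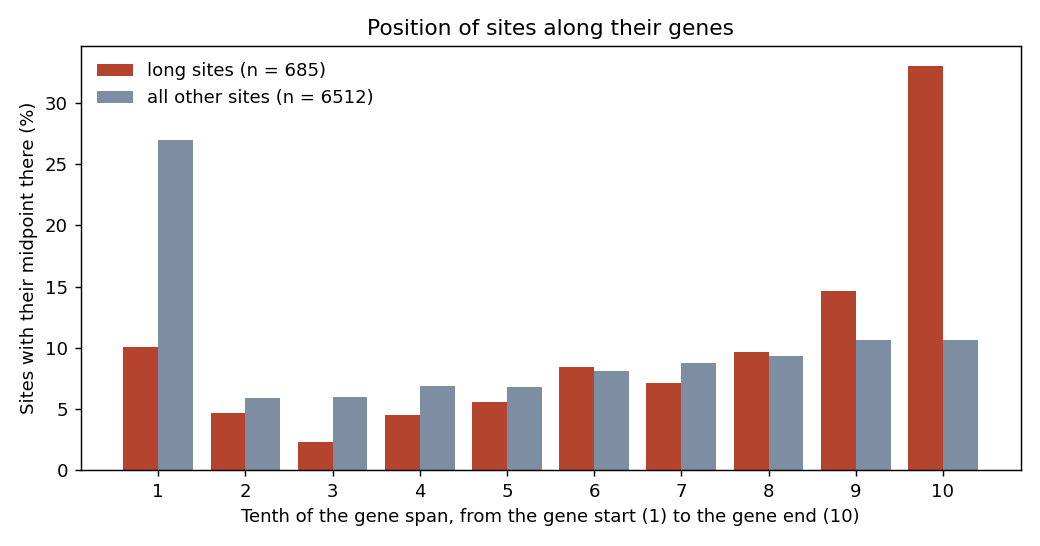
Share of sites (%) by the step of 10% of the gene span that holds their midpoint, from the gene start to the gene end, for the 685 long sites (red) and 6512 other sites (grey) with a strand. Long sites were most frequent in the last 10% (33.0%) and other sites in the first (27%).

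Folds of the long sites were larger at gene starts than elsewhere. The 69 long sites with their midpoint in the first 10% had a median fold of 7.02, and 27.5% of them reached 10. In the last 10% the median was 6.455 and 17.7% reached 10, and in between the median was 6.075 and 14.9% did so. Other sites showed the same order at gene starts, with a median of 8.625 in the first 10% and 6.77 in the last. Within the last 10%, long and other sites were alike in the share at a fold of 10, with 17.7% and 17.9%. Yy1, Hnrnpm and Brd9 were long sites at the start of their genes, while Hmgn5, Ap3d1 and the splicing factor Nsrp1 (listed as Ccdc55, fold 24.42) had theirs at the end.

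Many long sites ended on the last base of their gene. The interval held the annotated gene end in 136 of 685 long sites (19.9%) and in 2.38% of other sites, and its edge was exactly that last base in 95 long sites (13.9%) and 1.78% of other sites. The annotated start was held by 10.9% of long and 9.64% of other sites, and was matched to the base in 7.74% and 5.74%. A longer interval holds more positions by construction. The site passed beyond the span of its gene in 78 of the 878 long sites that overlapped their gene (8.88%), and in 4.44% of other sites. Another protein-coding gene was overlapped by 66 long sites (7.52%) and 2.29% of other sites. The labels do not say how reads were divided between such genes.

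In 91 of the 878 long sites (10.4%) the interval covered over 50% of the whole gene span, as against 48 other sites (0.597%). Genes with a long site were shorter than the rest, with a median span of 28068 bases against 38609 bases for genes with other sites only. A span under 5000 bases was found in 15.1% of genes with a long site and in 5.48% of the others. In 16 of the 685 sites with a strand both edges matched the gene to the base. Among these were the leucine zipper factor Cebpb (1518 bases, fold 13.36), the linker histone H1fx (1062 bases, 10.06), the AP-1 factor Jund (2878 bases, 8.78), the ribonucleoprotein Hnrnpa0 (2678 bases, 7.79) and the CDK5 activator Cdk5r2 (2704 bases, 7.62). Jun covered its gene of 3187 bases and 2 further bases, with a fold of 10.22. All of these genes had no other site.

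The first 30 bases of 5 of these genes, Jun included, are given because the enriched stretch began on their first base. They lie at chr4:95052193-95052222 (Jun, minus strand), chr2:167688915-167688944 (Cebpb, plus), chr8:70697739-70697768 (Jund, plus), chr13:58128527-58128556 (Hnrnpa0, minus) and chr1:74855029-74855058 (Cdk5r2, plus). Capitals mark GGAC.
Jun: gttgagctcaggctggataaGGACtcagag
Cebpb: gcccgttgccaggcgccgccttataaacct
Jund: caaggcacaatggcatatattagtcatcca
Hnrnpa0: ctctttgtgtggtgtcccgataggggagcg
Cdk5r2: ggggctgcagcagcagcggcgccgcccgcg

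Jun held a GGAC within these 30 bases, as GGACT, and the other 4 held none. Further sites covered most of their gene span, among them those of the corepressor Irf2bp1 (99.7% of its span, fold 19.62), Fam43a (99.0%, 12.82), the tubulin chaperone Tbcc (96.5%, 19.11), the heat shock genes Hspa1b (85.9%, 7.16) and Hspa2 (80.7%, 11.40), and the SoxC factor Sox12 (73.5%, 15.96). Reads of Hspa1b can be shared with its near-identical copy Hspa1a, and reads of histone genes with their paralogs, so these sites are uncertain.

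A long site was the only site of its gene more often than other sites were. This held for 473 of the 891 long sites (53.1%, interval 49.7% to 56.4%) and for 30.8% of the other sites. Because the rule removed genes with 10 or more sites, this share is in part set by the choice. On 344 genes a long site stood beside at least 1 other site, and the long site had the largest fold on 115 of them (33.4%). There it was set against the strongest of all other sites of the gene. This share therefore falls by number alone where a gene has several other sites. On 171 genes there was exactly 1 long and 1 other site. There the long site had the larger fold on 69 (40.4%, interval 32.9% to 48.1%), with a median of 6.15 for long sites and 7.26 for their partners, but the higher score on 95 (55.6%). Of 141 such pairs with a strand, the long site was nearer the 3′ end on 106 (75.2%).

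**Figure D4:**
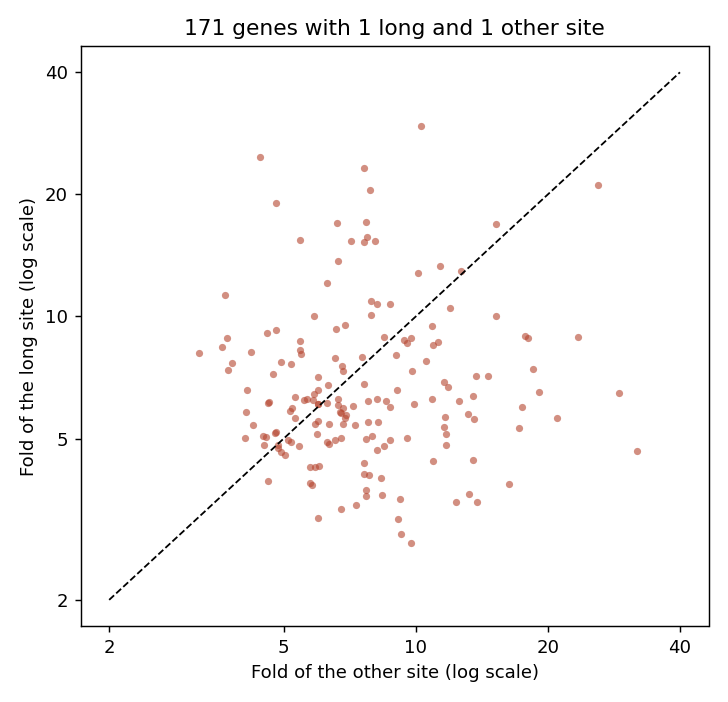
Deposited fold of the long site (vertical) against that of the other site (horizontal) on 171 genes with 1 of each, both on log axes. The dashed line marks equal folds, and 69 genes lie above it.

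The pairs with the widest gaps, picked after their values were seen, ran in both directions. The long site of Ap3d1 had a fold of 24.76 and its partner of 316 bases 4.41. For Irx1, an Iroquois homeobox factor of alpha cells, the values were 19.06 over 1036 bases and 4.81 over 511 bases. In the other direction, Ywhah, a 14-3-3 adaptor, had 4.67 over a long site of 1425 bases and 31.94 over 339 bases, and Heca had 6.46 over 1041 bases and 29.03 over 559 bases. Chgb, a granule protein of endocrine cells with 3 sites, had a fold of 9.68 over its long site of 1766 bases (chromosome 2, 132792330 to 132794095), against 21.38 over 389 bases and 8.83 over 94 bases.

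Several long sites on the same gene were found on 49 genes, with 2 on 45 of them and 3 on 4. Arid1a, the DNA-binding subunit of the BAF remodelling complex, had folds of 15.14 near its start (1143 bases, midpoint at 4.80% of the span), 15.60 in its middle part (1041 bases, 43.0%) and 5.57 at its end (2851 bases, 97.9%). The 3 long sites of Kmt2d, a histone H3 lysine 4 methyltransferase, had folds of 8.64, 4.85 and 4.35 over 2952, 1434 and 1141 bases. Nefm, a neurofilament subunit, had 12.07, 8.34 and 6.71, but the last of these lay outside the RefSeq span of Nefm. For the predicted gene 9930111J21Rik2, 2 of its 3 long sites lay outside its span, and its folds were between 4.13 and 5.72. Folds differed widely within some genes: Rsf1 had 27.21 and 7.16, Hnrnpm 37.73 and 9.82, and Zeb1 13.27 and 2.77.

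Among gene groups, zinc finger genes stood out by number. Of 110 genes with a site whose symbols begin with Zfp, Zbtb, Zscan, Zkscan, Zfhx or Zeb, 58 (52.7%) had a long one, against 16.9% of all genes with a site. Zinc finger genes of the C2H2 type usually encode their tandem fingers in a single long exon at the 3′ end. Their 63 long sites ran from 1051 to 5594 bases, with a median of 1618, and had a median fold of 6.15, beside 6.32 for long sites on other genes. The strongest were Zfp513 (fold 20.41, 1167 bases ending on the last base of the gene), Zfp91 (17.08), Zeb1 (13.27), Zbtb10 (12.33), Zbtb7a (11.96 over 4253 bases) and Zfp319 (10.59 over 3677 bases). A fold of 10 was reached by 8 of the 63 (12.7%). The share was 17.9% for long sites on other genes and 16.5% for the other sites on zinc finger genes, against 24.6% of all sites. The last 10% of the gene held 10 of 49 placed sites (20.4%), as against 34.0% of long sites on other genes, while the median midpoints were close, at 77.3% and 78.7% of the span.

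**Figure D5:**
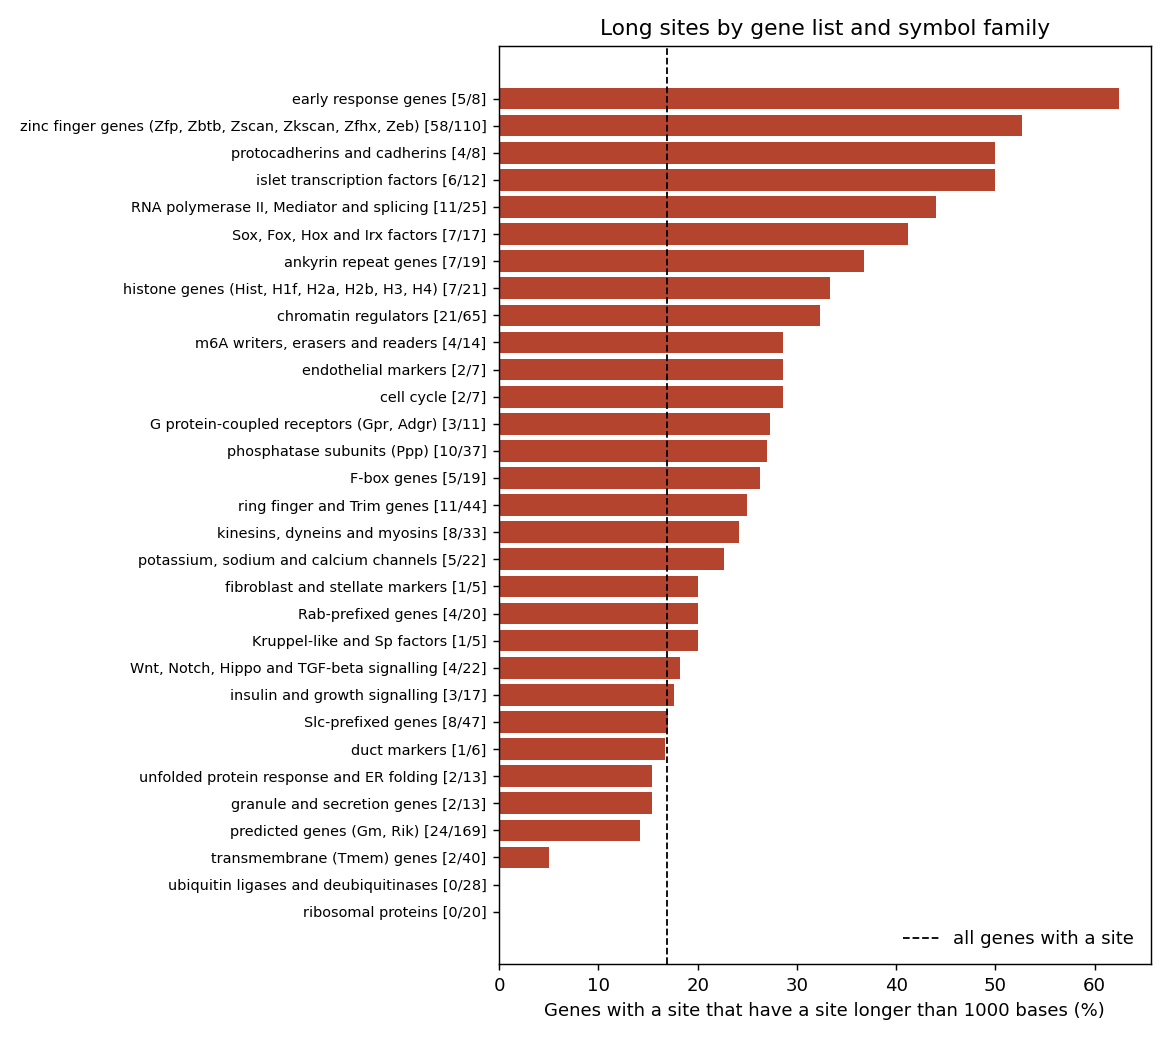
Share (%) of genes with a site that had a long one, for gene lists and symbol families with at least 5 such genes. Brackets give genes with a long site over genes with any site, and the dashed line marks all genes with a site (16.9%).

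Other lists of transcription factors were small, beside the 16.9% of all genes with a site. Of 12 islet transcription factors with a site, 6 had a long one (50%). Beside Irx1 these were Mnx1, a homeobox factor of beta cells and motor neurons (fold 13.08, 1194 bases), Mafa, which drives insulin transcription in mature beta cells (12.52, 1080 bases), Neurod1, which is needed for beta cell development (9.24, 2528 bases), Fev (6.24, 1154 bases) and Gata6 (4.96, 1388 bases). Their scores differed more than their folds: Mafa had 3100 and Irx1 1931.1, whereas Neurod1 had 62.96. The FDR was 27.16% for Mafa and 39.79% for Irx1, and 100% for Mnx1, Neurod1, Fev and Gata6. Of the 1194 bases of the Mnx1 site, 785 lay past the annotated end of the gene. For Neurod1 it was 116 of 2528 bases. Early response genes had a long site on 5 of 8, namely Jun, Jund (8.78), Zfp36l1 (5.36), Ier2 (4.41) and Fosl2 (4.21). Of 17 Sox, Fox, Hox and Irx genes, 7 had one (41.2%), among them Foxp4 (9.42), Foxo6 (5.81) and Irx1, which the islet list also holds. Of 5 Kruppel-like and Sp factors, 1 had one (20%).

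The chosen list of chromatin regulators, which does not hold Rsf1 and Brd9, had a long site on 21 of 65 genes with a site (32.3%). The median over their long sites was 5.12, beside 6.27 over all long sites and 7.31 over all sites of this list. The largest folds within the list were those of Arid1a (15.60), Arid4b (13.65) and Arid1b (12.41), all DNA-binding remodelling or corepressor subunits, and the PHD finger protein Phf3 (10.33). The histone methyltransferases Kmt2a (5.14), Kmt2b (6.18) and Kmt2c (5.10), the acetyltransferase Ep300 (5.17) and the remodeller Chd7 (2.92) were lower. Genes of RNA polymerase II, Mediator and splicing had a long site on 11 of 25 (44.0%), with a median fold of 8.455. Nsrp1 came first, followed by the transcription kinase Cdk13 (14.09), the splicing proteins Pnn (13.41) and Acin1 (10.72), and Srsf11 (9.56). The Mediator subunit Med1 (4.33 over 4882 bases) and the polymerase subunit Polr2a (4.13) were at the lower end.

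The machinery of m6A itself had long sites on 4 of its 14 genes with a site (28.6%), beside 16.9% of all genes with a site. Zc3h13, which anchors the writer complex in the nucleus, had a fold of 22.96 over 1191 bases, the largest of its 8 sites. The eraser Alkbh5, which removes the methyl group, had 8.07, the writer adaptor Rbm15 5.31 over 3770 bases, and the methyltransferase Mettl16 3.40. For the last 3 the long site was their only site. Histone genes, a family added after the values were seen, had 7 of 21 (33.3%), including the linker histones Hist1h1e (15.82), H1fx (10.06) and Hist1h1c (8.57). The sites of Hist1h1e and Hist1h1c extended 1149 and 836 bases past their genes.

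Signalling and secretory genes were nearer to the share of all genes with a site, 16.9%. Insulin and growth signalling had 3 of 17 (17.6%), among them the insulin receptor substrate Irs2 (7.96 over 3989 bases) and the growth inhibitor Tsc1 (5.90). Wnt, Notch, Hippo and TGF-beta signalling had 4 of 22 (18.2%), led by the Hippo kinase Lats2 (17.65). Granule and secretion genes had 2 of 13 (15.4%), Chgb and the prohormone Vgf (11.10 over 2386 bases, its only site). The unfolded protein response had 2 of 13 (15.4%), the lectin chaperone Canx (10.03) and the stress kinase Eif2ak3 (3.14). The cell cycle list had 2 of 7 (28.6%), Mki67 and the CDK inhibitor Cdkn2c (5.96). None was found on the 20 ribosomal protein genes with a site, nor on the 28 genes with a site of a hand-made list of ubiquitin ligases and deubiquitinases. That list leaves out Trim8 and Rnf26, and by symbol 11 of 44 ring finger and Trim genes (25%) and 5 of 19 F-box genes (26.3%) had a long site. With no test, none of these shares is shown to differ from that of all genes.

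Of the cell type markers, 14 had a site and 5 of these a long one, beside 16.9% of all genes with a site. Of 7 beta cell markers only Mafa had a site in the list, and it was long, while Ins1, Ins2, Iapp, Slc2a2, Pdx1 and Nkx6-1 had none. The alpha cell marker Irx1 had a long site, and the delta cell markers Sst and Hhex had no site. Of 7 endothelial markers 5 had a site, and the long one lay on Cdh5, the cadherin of endothelial junctions (9.52 over 1798 bases). A longer endothelial list had a long site on 2 of 7 genes with a site, Cdh5 and the factor Sox18 (4.85). The duct factor Sox9 (4.63) and the pericyte receptor Pdgfrb (4.39) had a long site too. Acinar, leukocyte and glial markers had no long site. A list of sites does not measure how much of a transcript is present, so the markers do not tell which cells the RNA came from.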

How the data were processed

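m6A immunoprecipitation sequencing was deposited as 1 list of sites from 1 IP and 1 Input library. Per the labels, reads were trimmed with cutadapt 1.9.3, aligned with HISAT2 2.0.4 and called with MACS. The library protocol names a human build and the submitters' processing notes name mm10. Of 8942 sites matched to a RefSeq gene of GRCm38.p6, 8924 (99.8%) overlapped it, so coordinates are given as GRCm38, counted from 1. The deposited fold is a linear ratio from the authors' caller, the deposited score is 10 times the negative log10 of its p-value, and the deposited FDR is in percent, with no stated method. Lengths equalled the deposited end minus the deposited start, which is counted from 0.

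Long sites were selected by script and set against all other sites by medians, quartiles and shares, with exact binomial intervals at 95%. No test was made, since 1 library per group gives none, and no count test fits these values. Each gene's strand came from the RefSeq promoter table. The functions for relative position and gene edges were tested on simulated data. No genome was used, so the motif analysis planned over whole sites was replaced by one over promoter windows, and protein lengths were not analysed. The members, the 18 gene lists and the symbol families were chosen with earlier results of these data known. Named genes were the 10 largest folds, the 5 longest, the 3 next to each side of the length limit, genes with several long sites, the 3 smallest folds and up to 4 per list; not all are printed, and others that are named were chosen after their values were seen. Python 3.11.15, pandas 2.3.3 and scipy 1.17.1 were used. Some genes are not reported here.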

Additional observations from a re-analysis of the deposited data

How the results depend on the processing

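Alternatives to the length limit, the limit on sites per gene and the caller's thresholds were compared with the shares given above. Of 30 such comparisons, 20 stayed within the exact binomial interval of the reported share or within 1.5 times the reported count. The alternatives share most or many of their sites with the reported set, so this tally is no independent check. Lifting the limit on sites per gene, for example, raised the number of long sites only from 891 to 896 and could hardly move a share. With a limit of 1500 bases, 70.5% of long sites had a score of at least 100 in place of 66.6%, 35.8% had an FDR below 100% in place of 32.0%, and 40 in place of 64 listed genes had a long site. With a fold of at least 5, the share with a score of at least 100 was 76.2%, that with an FDR below 100% was 40.6%, and the long site had the largest fold on 38.7% of genes with another site, in place of 33.4%. With a score of at least 100, 25.3% of long sites had a fold of at least 10 in place of 17.5%, and 48.1% an FDR below 100%. With an FDR below 100%, 41.8% had a fold of at least 10. Folds, scores and rates come from the same reads, so a limit on any of them raises the others by construction. Read at its 3′ edge in place of its midpoint, 50.4% of long sites lay in the last 10% of the gene in place of 33.0%, as a longer interval reaches further. Limits to RefSeq transcripts and to sites that overlap no other protein-coding gene were added after seeing the data and left 33.0% and 33.7% there. Whole-site motif densities were not run. No paired analysis was possible because there was 1 library per group. Read depth is unknown, so no fold carries an error.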

Other observations

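The kind of transcript record that a site was assigned to differed between long and other sites. A RefSeq record was used for 624 of 891 long sites (70.0%) and 82.9% of other sites, an Ensembl record for 16.9% and 11.6%, and a UCSC record for 13% and 5.53%. The median fold of long sites was 6.03 on RefSeq, 6.88 on Ensembl and 6.875 on UCSC records.

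By the authors' own annotation terms, of which the most frequent were read after the values were seen, 168 of 571 genes with a site that were annotated to DNA binding had a long one (29.4%), and 148 of 549 annotated to regulation of transcription (27%). For RNA binding it was 33 of 303 (10.9%), for poly(A) RNA binding 87 of 544 (16%), for transport 45 of 457 (9.85%), for hydrolase activity 32 of 387 (8.27%), for the mitochondrion 35 of 436 (8.03%) and for metabolic pathways 15 of 244 (6.15%), beside 16.9% of all genes with a site. These terms share genes and were not tested.

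Chromosomes with at least 1 long site had shares of long sites between 6.90% (37 of 536 on chromosome 1) and 15.1% (56 of 371 on chromosome 17). Of the 881 long sites matched to a gene, 10 lay on pseudogenes, 3 of them annotated as transcribed, and 1 on a long noncoding RNA gene. Among the 8096 other sites, 32 lay on pseudogenes not annotated as transcribed, 6 on transcribed pseudogenes and 9 on long noncoding RNA genes.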
